A study of Mus musculus with 4 samples.

Results

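The Hox genes are 39 protein-coding genes of the mouse, taken here as every gene whose symbol is Hoxa, Hoxb, Hoxc or Hoxd followed by a number. They were found by symbol in the E8.5 gene tables and by Ensembl identifier in the E9.5 tables, and are 39 of 27514 genes listed for all libraries. The Hoxa cluster on chromosome 6 held 11 of them, the Hoxb cluster on chromosome 11 held 10, the Hoxc cluster on chromosome 15 held 9 and the Hoxd cluster on chromosome 2 held 9. Their identification rested on names alone and used no measured value.

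Hox genes encode homeodomain transcription factors that give cells their position along the head-to-tail axis. Genes at the 3′ end of each cluster (low numbers) are switched on early and in the head and neck, and genes further 5′ follow later and more caudally. Genes with the same number in different clusters descend from 1 ancestral gene and form a paralog group. Retinoic acid, made by Aldh1a2 and degraded by the Cyp26 enzymes, is a known activator of the 3′ genes, and Pbx and Meis proteins bind DNA together with Hox proteins. In the pharyngeal region, Hoxb1 and Hoxa3 are known for roles in the pharyngeal arches, the outflow tract and the second heart field, the progenitor pool that adds muscle to both poles of the heart tube.

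Single-cell RNA-seq had been performed on GFP+ DAPI- sorted cells from mouse embryos of Swiss Webster background at E8.5 and E9.5, 1 library per genotype and stage. Control embryos (Ctrl) were Tbx1Cre/+;Rosa26-GFPflox/+ and conditional knockout embryos (cKO) were Tbx1Cre/flox;Rosa26-GFPflox/+. The Cre was inserted into the Tbx1 gene and inactivates that copy, so the Ctrl cells also carried a single working copy of Tbx1, the transcription factor gene studied, and all 4 groups carried the reporter. Only cells with a history of Tbx1 expression entered the libraries, and each library pooled several embryos. By the study's somite counts, the cKO embryos reached slightly later somite stages than the Ctrl embryos at E8.5, and also at E9.5. Genotype and embryo age within a stage therefore cannot be told apart. The E8.5 tissue was the upper body and the E9.5 tissue was the pharyngeal apparatus with the heart, to which the study's methods add the back, so stage, dissection and library cannot be told apart. With 1 library per group no test between groups was possible, and every interval below is a 95% interval for counting error only, which covers neither embryos nor library preparation.

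The libraries held 1434 cells (Ctrl E8.5), 1090 (cKO E8.5), 5453 (Ctrl E9.5) and 6266 (cKO E9.5), with a median of 15911 to 23984 UMIs (unique molecular identifiers, 1 per captured transcript) per cell. The cKO E8.5 cells were the deepest. Between 2 and 55 cell barcodes were shared by any pair of libraries, none of them over 1.01% of a library. Tbx1 was not lower in the cKO libraries, at 86.4 and 118 UPM (UMIs per 1000000 UMIs of the shared genes) in Ctrl and cKO at E8.5 and 103 and 134 UPM at E9.5. These 3′ counts do not tell the recombined from the intact allele, so they leave the genotype labels unchecked. The gene table of cKO E9.5 listed 31053 genes and those of the other 3 libraries 27998, so that genotype, library and annotation cannot be told apart at E9.5.

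Several results below turn on Hoxb1 and Hoxa2, and their start regions are shown for that reason, a choice made after the values were seen (RefSeq, GRCm38.p6, 250 bases before to 50 bases after the start). The letters TGATNNAT, which Hox and Pbx proteins are known to bind together, were searched on both strands and are in capitals. The Hoxb1 region, on the plus strand, is chr11:96365508-96365807, and the Hoxa2 region, on the minus strand, is chr6:52164782-52165081. Both are written 5′ to 3′ on the strand of the gene.
Hoxb1: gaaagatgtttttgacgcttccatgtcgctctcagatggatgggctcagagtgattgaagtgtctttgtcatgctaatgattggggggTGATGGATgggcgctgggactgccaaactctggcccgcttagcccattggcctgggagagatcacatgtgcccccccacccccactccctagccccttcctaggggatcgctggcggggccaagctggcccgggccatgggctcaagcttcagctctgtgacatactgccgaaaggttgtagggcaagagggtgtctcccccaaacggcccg
Hoxa2: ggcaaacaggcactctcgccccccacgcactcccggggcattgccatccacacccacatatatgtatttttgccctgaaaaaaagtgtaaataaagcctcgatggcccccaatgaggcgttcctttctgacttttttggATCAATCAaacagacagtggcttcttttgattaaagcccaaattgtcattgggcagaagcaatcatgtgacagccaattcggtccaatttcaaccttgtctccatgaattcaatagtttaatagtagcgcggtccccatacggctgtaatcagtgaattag

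The Hoxb1 match began 162 bases before the start, and the Hoxa2 match, on the opposite strand, began 111 bases before it. The motif was present in 8.85% of 32851 promoters of the same length, and in 4 of the 24 promoters that matched 22 Hox members (Hoxa2, Hoxb1, Hoxb8 and Hoxd11). The letters AGGTCA, which retinoic acid receptors are known to bind, were in 16.3% of all promoters and in 7 of the Hox promoters, those of Hoxa5, Hoxb4, Hoxc4, Hoxd3, Hoxd4, Hoxd8 and Hoxd10. A match of letters is a description and no evidence of binding.

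The Hox code of the sorted cells was almost wholly 3′. Summed over the members there were 2289, 2816, 10340 and 13833 UMIs in Ctrl E8.5, cKO E8.5, Ctrl E9.5 and cKO E9.5, or 90.7, 109, 110 and 132 UPM. The kit reads the 3′ end and counts a transcript once whatever its length, so levels of different genes are set side by side in UPM. Members with at least 100 UMIs in a library included Hoxb1 and Hoxd1 of paralog group 1, Hoxa2 and Hoxb2 of group 2, Hoxa3 and Hoxb3 of group 3, Hoxb4 and Hoxc4 of group 4, and Hoxa5 and Hoxb5 of group 5. Another 15 had between 1 and 99 UMIs at most, and 13 had 0 UMIs in all libraries (Hoxa6, Hoxa9, Hoxa10, Hoxa11, Hoxa13, Hoxc8, Hoxc10, Hoxc11, Hoxc12, Hoxc13, Hoxd10, Hoxd11 and Hoxd12).

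Genes of paralog groups 6 to 13, which pattern the trunk and tail, summed to 25, 29, 18 and 21 UMIs in the same order, found in 14, 14, 15 and 16 cells. At E8.5 a single cell held 9 of them in each genotype, and at E9.5 no cell held more than 2 in Ctrl and 5 in cKO. In cKO E8.5, Hoxb9 had 10 UMIs in 2 cells and Hoxc9 had 5 UMIs in 1 cell. Hoxd4 had 47 and 35 UMIs in Ctrl and cKO at E8.5 and 11 in Ctrl E9.5. The cKO E9.5 table gave it 2 identifiers, with 0 UMIs under the shared one and 1 under the second, and Hoxd4 is therefore not compared at E9.5.

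Paralog group 2 supplied a larger part of the code at the later stage. In Ctrl, it supplied 42.6% of Hox UMIs at E8.5 and 61.8% at E9.5, and in cKO it supplied 50.6% and 60.6%. The Hoxb cluster held the largest share in every library, at 52.7%, 56.4%, 56.6% and 61.4% in the order Ctrl E8.5, cKO E8.5, Ctrl E9.5 and cKO E9.5.

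**Figure D1:**
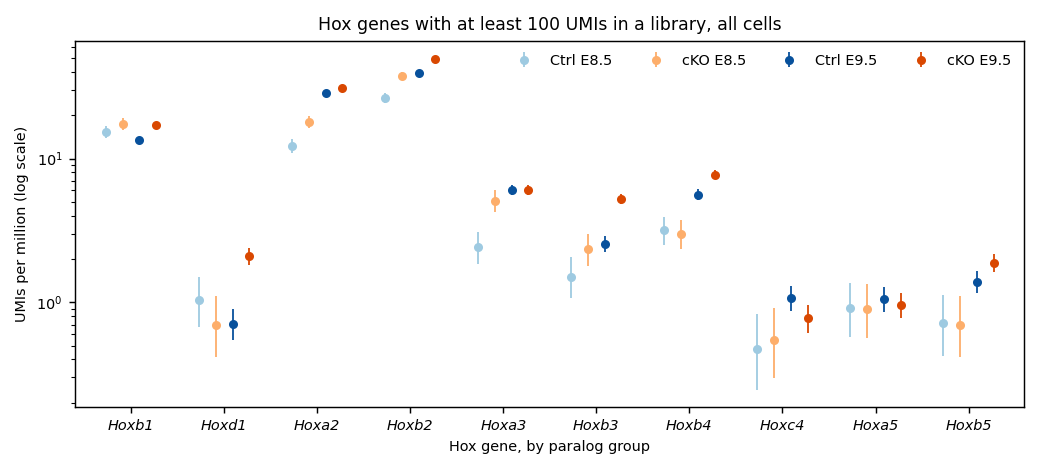
Level of Hox members with at least 100 UMIs in a library, in UPM on a log axis, in the 4 libraries, with 95% Poisson intervals. Hoxb2 stands highest in every library, from 26.4 in Ctrl E8.5 to 49.2 in cKO E9.5, and Hoxa2 is higher at E9.5 (28.7 and 31.0) than at E8.5 (12.2 and 18.0).

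Of the group 1 genes, which act first in the hindbrain and its adjoining mesoderm, Hoxb1 stood at 15.3, 17.4, 13.4 and 17.1 UPM in Ctrl E8.5, cKO E8.5, Ctrl E9.5 and cKO E9.5. Hoxd1, which was less abundant, stood at 1.03, 0.699, 0.711 and 2.08 UPM in the same order. Between stages in Ctrl, Hoxb1 had a log2 ratio of -0.19 (-0.36 to -0.03), which was 0.27 with each cell group given its Ctrl E8.5 weight at both stages.

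The group 2 genes, which specify the second pharyngeal arch and hindbrain, were the most abundant at E9.5. Hoxa2 stood at 12.2, 18.0, 28.7 and 31.0 UPM and Hoxb2 at 26.4, 37.4, 39.05 and 49.2 UPM, in the order used above. Both were higher at E9.5 than at E8.5 in each genotype, with log2 ratios in Ctrl of 1.23 (1.06 to 1.41) for Hoxa2 and 0.57 (0.45 to 0.69) for Hoxb2. Both were also higher in cKO than in Ctrl at E8.5, by 0.56 (0.35 to 0.77) and 0.50 (0.36 to 0.65). The cKO E8.5 embryos reached slightly later somite stages, and the part of this in the difference was not tested.

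Group 3 genes are known for posterior arch derivatives such as the thymus and parathyroid. Hoxa3 stood at 2.42, 5.09, 6.07 and 6.03 UPM and Hoxb3 at 1.51, 2.33, 2.55 and 5.22 UPM. The higher cKO value of Hoxa3 was thus seen at E8.5 (log2 1.07, 0.63 to 1.54) and not at E9.5 (-0.01, -0.17 to 0.16), and for Hoxb3 the E9.5 difference was the larger (1.04, 0.81 to 1.26, against 0.63, 0.02 to 1.26). The difference between the stages was not tested.

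Groups 4 and 5 mark the caudal hindbrain, posterior arches and foregut. Hoxb4 stood at 3.17, 2.99, 5.60 and 7.72 UPM, above Hoxb3 in every library, Hoxb5 at 0.713, 0.699, 1.39 and 1.87 UPM, Hoxa5 at 0.911, 0.894, 1.05 and 0.956 UPM, and Hoxc4 at 0.476, 0.544, 1.07 and 0.774 UPM. Hoxb4 and Hoxb5 were higher at E9.5 than at E8.5 in both genotypes, and the levels of Hoxa5 did not differ beyond counting error.

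Between genotypes, the summed level was higher in cKO at both stages, with a log2 ratio of 0.27 at E8.5 (0.19 to 0.35) and 0.27 at E9.5 (0.23 to 0.31). With edgeR TMM factors the ratios were 0.22 and 0.53. In these library sums, more cells of a kind and more RNA per cell cannot be told apart. The median over all genes measured was 0.04 at E8.5 and -0.26 at E9.5, so at E9.5 the Hox sum lay further from the median gene than from 0. Of 12 members with at least 20 UMIs over both E8.5 libraries, 1 was at least 2-fold higher in cKO (Hoxa3) and 0 were at least 2-fold lower. Over 12762 genes the shares were 2.92% higher and 1.3% lower. Of 15 members measured this way at E9.5, 4 were at least 2-fold higher (Hoxd1, Hoxd3, Hoxa4 and Hoxb3) and 0 lower, against 3.56% higher and 9.8% lower over 15130 genes.

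The members past 2-fold at E9.5 were of low abundance. Hoxd1 had 67 UMIs in Ctrl and 218 in cKO (log2 1.55, 1.15 to 1.97), and Hoxb3 had 240 and 546. Hoxd3 had 28 and 71 UMIs (1.19, 0.54 to 1.88) and Hoxa4 had 11 and 27 (1.15, 0.09 to 2.30). These last members fell outside the 100-UMI rule and are named because the count is small. Hoxa4, Hoxb3 and Hoxd3 each overlap another member in the RefSeq annotation, and how the authors' counting treated overlaps is not given in the sources used here, so their separate values are uncertain.

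The more abundant members differed less at E9.5, with log2 ratios of 0.46 for Hoxb4 (0.30 to 0.62), 0.43 for Hoxb5 (0.10 to 0.76), 0.36 for Hoxb1 (0.25 to 0.46), 0.33 for Hoxb2 (0.27 to 0.39) and 0.11 for Hoxa2 (0.04 to 0.18). With each cell group given its Ctrl weight in both genotypes, Hoxa2 had a ratio of -0.05. Hoxc4 had a ratio of -0.47 (-0.91 to -0.03), which was 0.78 with each cell group given its Ctrl weight. With that weighting the ratio of Hoxb3 was 0.72, of Hoxd1 0.67, of Hoxd3 0.10, of Hoxb4 0.14 and of Hoxb1 0.62.

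Between stages in Ctrl, 4 of 14 measured members were at least 2-fold higher at E9.5 (Hoxa2, Hoxa3, Hoxc4 and Hoxc5), against 17.9% of 14441 genes, and 2 were at least 2-fold lower, Hoxd4 among them, against 2.98%. The median of all genes in this comparison was 0.39. The summed Hox level had a log2 ratio of 0.27 (0.21 to 0.34), which lies below that median, and of -0.04 with edgeR TMM factors.

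To place the code in cells, cells were gated on marker genes, none of them a Hox gene. Posterior second heart field-like (pSHF-like) cells had at least 3 UMIs over 2 or more of Tbx5, Foxf1, Wnt2 and Osr1. Anterior second heart field-like (aSHF-like) cells had at least 2 Isl1 UMIs and at least 3 genes of Nkx2-5, Mef2c, Fgf10, Sema3c, Rgs5 and Hand2. Arg1-gated cells had at least 3 UMIs of Arg1, the gene of the enzyme arginase. Branchiomeric muscle-like (BrM-like) cells had at least 3 UMIs of Tcf21, Msc, Lhx2, Myf5 and Myod1. Epcam-positive cells were endoderm-like with at least 2 UMIs of Foxa2, Foxa1, Pax9, Shh and Nkx2-1, and otherwise other Epcam-gated. Neuroblast-like cells had at least 2 UMIs of Neurog1, Neurod1, Neurod4 and Nhlh1, and cardiomyocyte-like, endothelial-like and neural crest-like cells were gated on contractile, vascular and crest genes. Mesenchyme was gated on Tcf15 with Meox1, on Zic1 or Zic4 with Msx genes, on Foxd1 or Foxd2, on Foxf2 or Foxl1, and on Crym. Cells with at least 3 Arg1 UMIs were kept out of the aSHF-like and Tcf15/Meox1 gates. Cells that met the pSHF-like rule were kept out of the aSHF-like and Arg1 gates.

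Cells that passed several gates (85, 199, 559 and 909 in the order above) were left out, and 685, 314, 1500 and 2041 cells passed none. Groups with at least 20 cells in a library were described, 14 of them at E9.5. The other Epcam-gated cells had surface ectoderm genes as well as Vgll2 among their high genes. Arg1-gated cells at E8.5 carried somitic genes (Meox1, Tcf15) beside Arg1 and Aplnr, and are called by their gate for that reason.

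At E9.5, summed Hox levels spanned more than 10 times between cell groups. In Ctrl E9.5 they were 306 UPM in endoderm-like, 296 in Arg1-gated, 279 in neuroblast-like and 258 in pSHF-like cells, and these neighbours in the order did not differ beyond their intervals. Other Epcam-gated (214), Zic/Msx-gated (164), Tcf15/Meox1-gated (149) and aSHF-like cells (135) followed, then cardiomyocyte-like cells (81.3). The lowest were Foxd1/Foxd2-gated (50.6), Crym-gated (44.0), Foxf2/Foxl1-gated (30.2), endothelial-like (25.5) and BrM-like cells (20.9). The endothelial and BrM values overlapped.

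In cKO E9.5 the same 5 groups stood highest, with 348 UPM in Arg1-gated, 338 in other Epcam-gated, 323 in endoderm-like, 302 in pSHF-like and 267 in neuroblast-like cells, and 25.7 in BrM-like cells. Zic/Msx-gated cells stood lower in the order than in Ctrl, at 82.6 UPM. At E8.5, among groups of at least 20 cells, Arg1-gated cells stood first in both genotypes, at 171 UPM in Ctrl and 207 in cKO. The BrM-like cells (18.6 and 28.6 UPM) and the Foxd1/Foxd2-gated cells (15.1 and 6.36 UPM) were lowest.

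**Figure D2:**
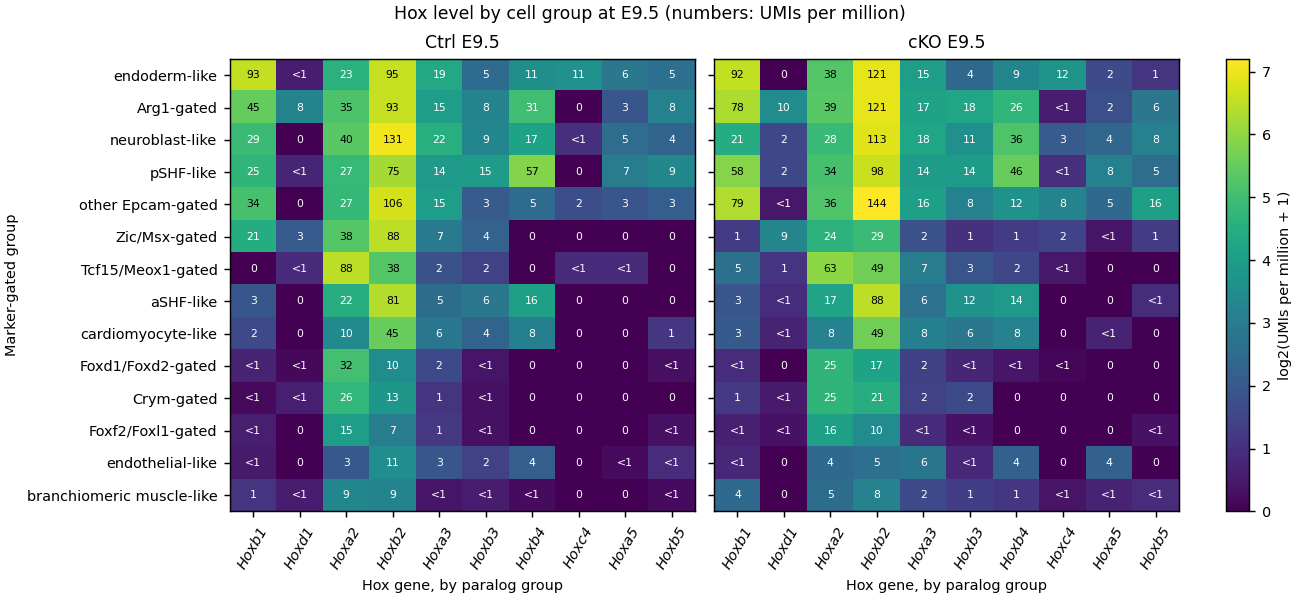
Level of the Hox members (UPM) in 14 marker-gated cell groups of the Ctrl and cKO libraries at E9.5. In Ctrl, Hoxb4 is highest in pSHF-like cells (56.7), Hoxb1 in endoderm-like cells (92.6) and Hoxa2 in Tcf15/Meox1-gated cells (88.2), and BrM-like cells are low for every member.

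In Ctrl E9.5 the members were highest in different cell groups, some of them shared. Hoxb1 was highest in endoderm-like cells (92.6 UPM, 85.4 to 100), while Tcf15/Meox1-gated cells had 0 Hoxb1 UMIs among 73 cells. That gate left out cells with at least 3 Arg1 UMIs. The Arg1-gated cells had Meox1 among their high genes and 44.5 UPM of Hoxb1. Hoxa2 was highest in exactly those Tcf15/Meox1-gated cells (88.2 UPM, 72.4 to 107), gated on genes of somites and paraxial mesoderm, and next in neuroblast-like cells (39.8 UPM). Hoxb2 was highest in neuroblast-like cells (131 UPM, 110 to 156) and Hoxa3 in the same cells (21.9 UPM).

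The pSHF-like cells had the highest levels of 4 members of groups 3 to 5. Their gate did not require Tbx5, and the study states that the Tbx1Cre lineage lacks the caudal posterior field with its lung progenitors. These were Hoxb4 at 56.7 UPM (45.3 to 70.1), Hoxb3 at 14.7 (9.20 to 22.2), Hoxb5 at 9.34 (5.11 to 15.7) and Hoxa5 at 7.34 UPM. Arg1-gated cells were next for Hoxb4, at 30.6 UPM (24.9 to 37.3), and the aSHF-like cells had 16.0 UPM. Of these 4, Hoxb4 alone separated the pSHF-like cells from the next group beyond counting error.

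Hoxc4 was the most restricted of the abundant members, with 11.4 UPM in endoderm-like cells, 2.32 in other Epcam-gated cells and 0 UMIs in 10 of 14 groups. Hoxd1 was highest in Arg1-gated cells (8.35 UPM) and next in Zic/Msx-gated cells (3.18 UPM), and Hoxd3 was highest in Arg1-gated cells (4.64 UPM). Over the 14 groups of Ctrl E9.5, pairs of members with alike levels were Hoxa3 and Hoxb1 (Pearson's r of 0.91 on log2 of UPM plus 1), Hoxa3 and Hoxb2 (0.90), Hoxa5 and Hoxb5 (0.90), and the neighbouring genes Hoxb3 and Hoxb4 (0.90). The nearest profile to Hoxd1 was that of Hoxb1 (0.39). The groups come from 1 library and share its depth, so these values describe that library.

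Cells were also thinned to 10000 UMIs each, which removed shallower cells, to compare shares of cells. In Ctrl E9.5, 82.1% of 179 thinned Arg1-gated cells had a UMI of any Hox gene, against 12.8% of 297 thinned BrM-like cells, a group with low Hox levels. Unthinned, the shares were 89.1% and 18.7% at medians of 16438 and 19138 UMIs. In 28.9% of 76 thinned pSHF-like cells the highest paralog group seen was group 4 and in 14.5% group 5, and the cKO cells had 27.3% and 16.4%. Of the BrM-like cells, 87.2% in Ctrl and 89.9% in cKO had no Hox UMI. In 12.1% of the Ctrl BrM-like cells the highest paralog group seen was group 2.

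**Figure D3:**
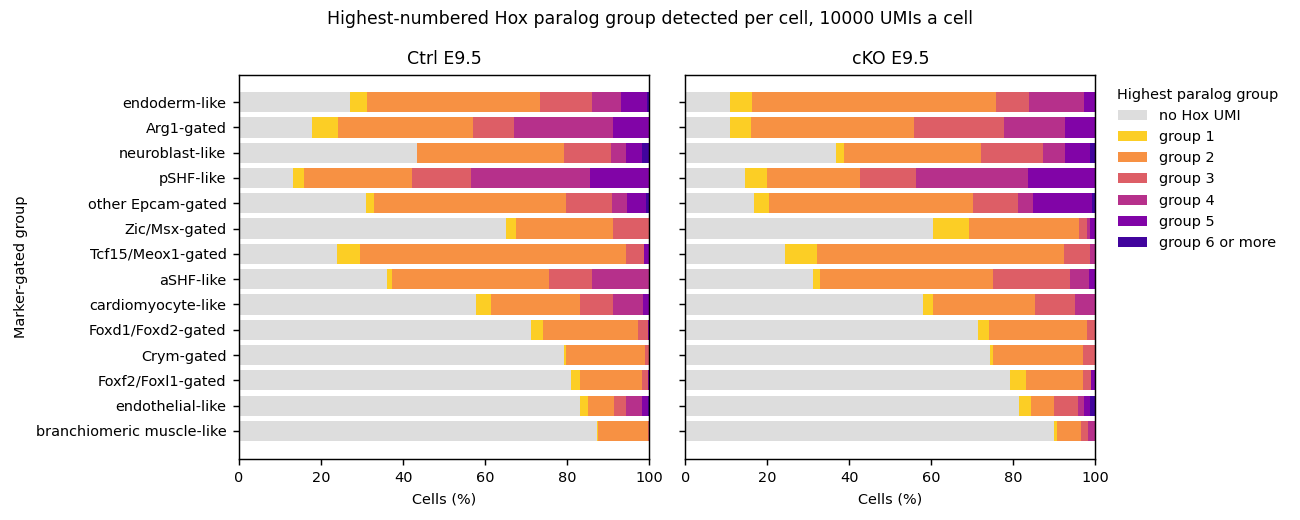
Share of cells (%) by the highest-numbered paralog group with a UMI, after thinning each cell to 10000 UMIs, for cell groups of Ctrl and cKO at E9.5. Group 4 is the highest in 28.9% of Ctrl and 27.3% of cKO pSHF-like cells, while 87.2% and 89.9% of BrM-like cells have no Hox UMI.

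The Arg1-gated cells held a large part of all Hox transcripts. They made up 17.7%, 20.4%, 3.54% and 9.83% of cells in Ctrl E8.5, cKO E8.5, Ctrl E9.5 and cKO E9.5, and held 34.4%, 41.7%, 9.26% and 27.2% of Hox UMIs. For Hoxb1 at E9.5 the share was 11.4% in Ctrl (9.72 to 13.3) and 47.1% in cKO (44.8 to 49.5). The larger share of Hoxb1 in cKO E9.5 came with both more Arg1-gated cells (616 against 193) and a higher UPM within them.

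Within the Arg1-gated cells, Hoxb1 was higher in cKO at E9.5. It stood at 33.0 UPM (28.0 to 38.7), 37.3 (32.4 to 42.6), 44.5 (37.6 to 52.4) and 78.2 UPM (73.0 to 83.7) in Ctrl E8.5, cKO E8.5, Ctrl E9.5 and cKO E9.5. The log2 ratio of cKO to Ctrl was 0.81 at E9.5 (0.56 to 1.08). At E8.5 it was 0.18 with an interval that held 0 (-0.13 to 0.49), and it lay between -0.13 and -0.06 under other gates.

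In thinned cells, 24.0% of Ctrl and 42.6% of cKO Arg1-gated cells at E9.5 had a Hoxb1 UMI (unthinned 30.1% and 51.9%, at medians of 16438 and 16801 UMIs). Hoxb1 in thinned BrM-like cells at E9.5 was at 0 of 297 Ctrl cells, which allows a share of up to 1.01% with a UMI at this depth (3 cells of the total), and at 2.37% of cKO cells. Unthinned, 0.645% of the Ctrl cells had one.

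**Figure D4:**
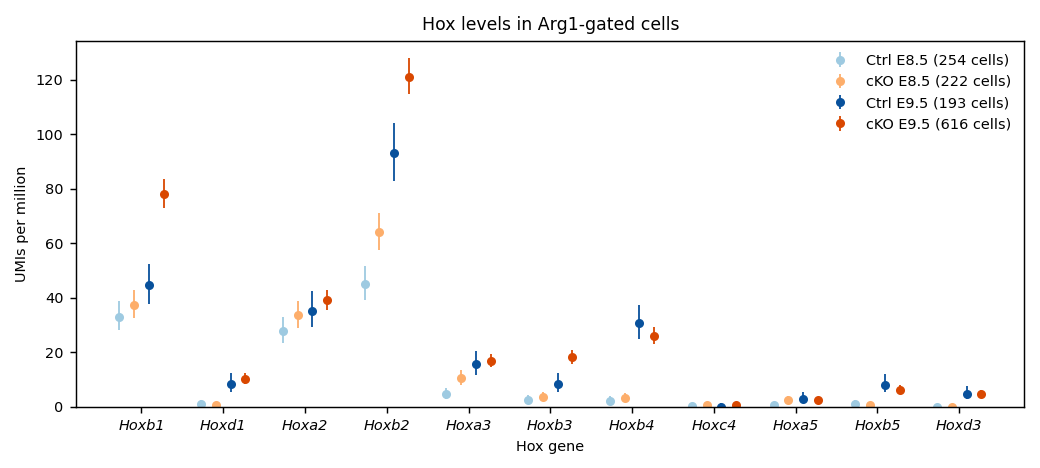
Hox members in Arg1-gated cells of the 4 libraries, in UPM with 95% Poisson intervals. Hoxb1 is higher in cKO (78.2) than in Ctrl (44.5) at E9.5, and Hoxb4 is near 2 to 3 at E8.5 and 25.9 to 30.6 at E9.5.

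Other members in the Arg1-gated cells differed mainly between stages, and so did the cells under this gate. In Ctrl, Tcf15 was among their high genes at E8.5, and Rdh10, Nrg1 and Hand2 were at E9.5. The gate held 17.7% of Ctrl cells at E8.5 and 3.54% at E9.5, and the part of this in the Hox levels was not tested. Hoxb4 stood at 1.95, 3.16, 30.6 and 25.9 UPM, Hoxb5 at 0.869, 0.527, 8.04 and 6.21 UPM, and Hoxd1 at 0.869, 0.527, 8.35 and 10.2 UPM. The E9.5 values of all 3 were above the E8.5 values with no overlap of intervals, and the genotypes overlapped in UPM at each stage. In thinned Arg1-gated cells at E9.5, however, fewer cKO cells had a Hoxb4 UMI. The shares were 27.9% in Ctrl (21.5 to 35.1) and 17.8% in cKO (14.8 to 21.2). The shares of cells with a Hoxb5 or Hoxd1 UMI overlapped between genotypes. Hoxb2, at 44.9, 64.0, 93.1 and 121 UPM, was higher at E9.5 and also higher in cKO at both stages (log2 0.51, 0.26 to 0.76, and 0.38, 0.20 to 0.57).

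Hoxb3, at 2.39, 3.52, 8.35 and 18.1 UPM, was the single member of 11 at least 2-fold higher in cKO Arg1-gated cells at E9.5 (1.12, 0.53 to 1.75), and 0 of 11 were at least 2-fold lower. Over 11010 genes, 3.73% were higher and 7.08% lower, with a median log2 ratio of -0.22. At E8.5, Hoxa3 was higher in cKO Arg1-gated cells (4.56 and 10.5 UPM, log2 1.21 with a lower bound of 0.47). The highest paralog group seen per thinned cell was group 3 in 10.1% of Ctrl and 21.8% of cKO cells at E9.5, and groups 4 or 5 in 33.0% and 22.3%.

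The Arg1-gated cells were not the same mixture in both genotypes. The summed somitic markers (Tcf15, Meox1, Meox2, Pax1, Uncx and Foxc2) were at 197 UPM in Ctrl and 336 UPM in cKO at E9.5, with 1 and 0 of 6 at 0, and the anterior second heart field markers at 582 and 190 UPM, with 0 of 7 at 0 in both. The list of Arg1, Rdh10, Vamp8, Isl1, Tbx1, Aplnr and Nrg1, of which the study uses Tbx1, Isl1, Aplnr and Nrg1 for its multilineage progenitors, stood at 1188 and 915 UPM. Cells with a UMI of Pax8, a gene the study followed in those progenitors, numbered 7 of 193 in Ctrl and 128 of 616 in cKO. Within cKO, Hoxb1 was at 101 UPM in the Pax8 cells (88.4 to 115) and at 72.1 UPM in the rest (66.5 to 78.0). In the 186 Ctrl cells with no Pax8 UMI, Hoxb1 was at 43.8 UPM (36.8 to 51.8). A cell with no Pax8 UMI is not shown to lack Pax8, and the part of these markers in the Hoxb1 difference was not tested.

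**Figure D5:**
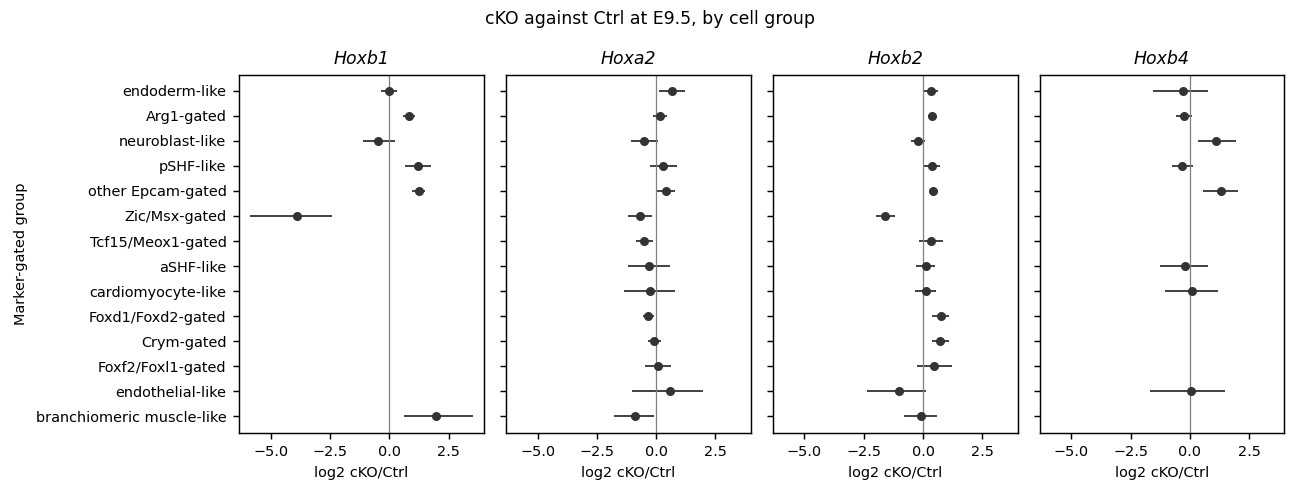
Log2 ratio of cKO to Ctrl at E9.5 for Hox members in each marker-gated group, with 95% counting intervals, for members with at least 20 UMIs over both libraries. Hoxb1 is above 0 in Arg1-gated (0.81), pSHF-like (1.19) and other Epcam-gated cells (1.24) and far below 0 in Zic/Msx-gated cells (-3.91). Without cells that had neural tube genes, Hoxb1 in Zic/Msx-gated cells had too few UMIs for a ratio.

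The higher Hoxb1 level in cKO E9.5 was also found in pSHF-like cells, at 25.4 UPM in Ctrl (17.9 to 34.8) and 57.9 in cKO (47.9 to 69.4), and in other Epcam-gated cells, at 33.6 (29.6 to 37.9) and 79.4 UPM (69.0 to 90.9). In thinned pSHF-like cells, 13.2% of 76 and 38.2% of 110 had a Hoxb1 UMI (unthinned 17.9% and 49.6%). Arg1 was among the high genes of the pSHF-like cells in Ctrl and not in cKO, and the part of this was not tested. Endoderm-like cells, where Hoxb1 was highest in Ctrl, had 92.6 and 91.8 UPM, a log2 ratio of -0.01 with an interval of -0.36 to 0.32. This group held 325 cells in Ctrl and 38 in cKO. Pax1 and Foxe1 were among its high genes in Ctrl and not in cKO, so the mixture was not the same. Neuroblast-like cells had 28.9 and 21.0 UPM, also with an interval that held 0 (-1.11 to 0.22).

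The broadest difference was in other Epcam-gated cells. Hoxb5 stood at 3.48 UPM in Ctrl and 15.9 in cKO (log2 2.20, 1.47 to 2.95), Hoxc4 at 2.32 and 8.35 (1.85, 0.88 to 2.83), Hoxc5 at 1.67 and 5.32 (1.67, 0.47 to 2.88), Hoxb4 at 4.76 and 11.8 (1.31, 0.57 to 2.03) and Hoxb3 at 3.22 and 7.97 (1.31, 0.40 to 2.21). Hoxa3, at 15.4 and 15.6 UPM (0.01, -0.54 to 0.53), and Hoxa5, at 2.70 and 4.56 UPM (0.75, -0.40 to 1.84), had intervals that held 0. The summed level was higher by 0.66 (0.55 to 0.78). The cells under this gate differed as well, with Vgll2 at 288 and 137 UPM, Pyy at 30.4 and 76.3 UPM, somitic markers at 92.9 and 158 UPM, and 411 and 142 cells, and the part of these differences was not tested.

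In neuroblast-like cells Hoxb4 was higher in cKO (16.9 and 36.4 UPM, log2 1.11, 0.36 to 1.94), and the summed level was not (279 and 267 UPM). Hoxb2 was higher in cKO in Foxd1/Foxd2-gated (10.2 and 17.1 UPM, 0.74, 0.38 to 1.11) and Crym-gated mesenchyme (12.9 and 21.5 UPM, 0.73, 0.38 to 1.09). Hoxa2 was lower in cKO Tcf15/Meox1-gated cells (88.2 and 62.5 UPM, -0.50, -0.86 to -0.13). In BrM-like cells the summed level had a ratio of 0.30 with an interval of -0.11 to 0.70, and of 1.01 with cells of several gates kept.

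Zic/Msx-gated cells went the other way. Hoxb1 stood at 21.0 UPM in Ctrl and 1.39 in cKO (log2 -3.91, -5.87 to -2.42), Hoxb2 at 87.8 and 29.3 (-1.59, -1.99 to -1.18), and the sum at 164 and 82.6 UPM (-0.99, -1.25 to -0.73). The sums of the neural tube genes Fabp7, Msx3, Olig3 and Hes5 in these cells were 296 UPM in Ctrl and 25.1 in cKO, with none of the 4 at 0 in either. Without the cells that had 2 or more UMIs of these genes (63 of 82 Ctrl and 159 of 164 cKO cells then remained, an alternative chosen after seeing the data), the sum was 34.5 UPM in Ctrl and 74.2 in cKO (1.11) and Hoxb2 had a ratio of 1.45. Hoxb1 then had too few UMIs for a ratio. The lower sum in cKO thus rested on the cells that were left out.

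At E8.5, the summed level was lower in cKO Tcf15/Meox1-gated cells. It stood at 134 UPM in 86 Ctrl cells and at 76.1 UPM in 47 cKO cells (log2 -0.82, -1.19 to -0.46, and -0.35 with cells of several gates kept). Hoxa2, at 26.1 and 29.1 UPM, did not follow (0.15, -0.55 to 0.85). In the Ctrl cells of this gate, Hoxa2 was higher at E9.5 (88.2 UPM).

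Genes that act on or with the Hox genes were read from a list of 38 (Pbx, Meis, Pknox, Cdx, retinoic acid and segmentation genes). At E8.5, 35 were measured and 0 were 2-fold apart in either direction, against 2.92% of all genes higher and 1.3% lower. At E9.5, 36 were measured, 0 were at least 2-fold higher in cKO and 5 were at least 2-fold lower, against 3.56% and 9.8% of all genes. These were the retinoic acid-degrading enzymes Cyp26b1 (6.17 and 2.05 UPM, log2 -1.59) and Cyp26c1 (2.23 and 0.573, -1.96), the homeobox gene Gbx2 (11.2 and 4.03, -1.48), and, at under 100 UMIs, Egr2 (-1.79) and Otx1 (-1.86). Egr2 and Otx1 are named because the count is small. The Ctrl counts of all 5, in the same order, were 582, 210, 1057, 50 and 49 UMIs.

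In Arg1-gated cells at E9.5, 32 of the 38 were measured. Of these, 3 were at least 2-fold higher in cKO and 2 at least 2-fold lower, against 3.73% and 7.08% of 11010 genes. Genes higher in cKO included Nr2f1 (17.3 and 72.8 UPM, log2 2.07, 1.68 to 2.49) and Nr2f2 (50.1 and 115, 1.20, 0.96 to 1.44). Lower were Cdx1, an activator of Hox genes (8.04 and 1.67, -2.27, -3.22 to -1.35), and Rdh10, which makes the precursor of retinoic acid (101 and 45.5, -1.16, -1.36 to -0.95). At E8.5, 29 were measured there and Cyp26a1 alone was at least 2-fold lower in cKO (10.9 and 2.64 UPM, -2.04, -2.98 to -1.19). The share over all genes in these cells at E8.5 is not given here. Aldh1a2 in pSHF-like cells, the cells with the highest Hoxb4, stood at 68.7 UPM in Ctrl and 68.3 in cKO at E9.5.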

How the data were processed

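The matrices hold UMI counts as the authors deposited them, raw and per barcode, from the 10x 3′ v2 assay after Cell Ranger alignment to mm10. Per the labels the version was 3.1.0, and the E8.5 matrix headers name 3.0.2. Whether strand was used, and how overlapping genes were counted, is not given in the sources used here. Every deposited barcode was kept and no doublet caller was run. Cells passing more than 1 gate were left out. Counts of the 27514 genes listed for all libraries were summed per library and cell group and divided by their total (UPM). Intervals were exact at 95%: Poisson for a level, conditional binomial for a ratio and Clopper-Pearson for a share. They cover counting error only. A ratio needed at least 20 UMIs over both libraries, and a group needed 20 cells. Where 1 side had 0 UMIs the floor was 3 UMIs. No test between groups and no p-value was computed, since each group was 1 library. Shares of cells used cells thinned to 10000 UMIs (seed 1).

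Members with at least 100 UMIs in a library were described in full, and listed regulators were named where they also differed by 2-fold or more. Some listed genes are not reported here, and sums and counts over the lists include them. The members, the lists and the gates were chosen with earlier results of these data known. Promoters came from RefSeq GRCm38.p6. Alternatives were edgeR 4.0.16 TMM factors, thinned counts, a minimum of 5000 UMIs per barcode, other minimum counts, weighted cell groups and stricter or looser gates. In the weighting, each cell group of the second library was scaled to its UMI total in the first. The first library was Ctrl between genotypes and Ctrl E8.5 between stages, and cells outside the groups compared were pooled. The scripts were tested on simulated data. Python 3.11.15 with numpy 2.4.6, scipy 1.17.1, pandas 2.3.3 and matplotlib 3.10.9, and R 4.3.3, were used.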

Additional observations from a re-analysis of the deposited data

Results flagged for a closer look

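In several comparisons, cells of 1 group lay above Ctrl and cells of another below it, with intervals that excluded 0 on each side. The differences between the groups were not tested, and each group is 1 library per genotype.

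At E8.5 the summed Hox level was higher in cKO Arg1-gated cells (log2 ratio 0.27) and lower in cKO Foxd1/Foxd2-gated cells (-1.25, from 18 and 14 UMIs). With cells of several gates kept, these ratios were 0.029 and 0.27, so the contrast was not kept. At E9.5 it was higher in other Epcam-gated cells (0.66) and lower in Zic/Msx-gated cells (-0.99). Hoxa2 at E9.5 was higher in cKO endoderm-like cells (0.68, 0.10 to 1.23) and lower in BrM-like cells (-0.90, -1.80 to -0.07). Hoxb1 at E9.5 was higher in cKO BrM-like cells (1.98, from 7 and 15 UMIs) and lower in Zic/Msx-gated cells (-3.91). Hoxb2 at E9.5 was higher in cKO Foxd1/Foxd2-gated cells (0.74) and lower in Zic/Msx-gated cells (-1.59). Without the cells that had neural tube genes, Zic/Msx-gated cells gave 1.11 for the sum and 1.45 for Hoxb2, so those contrasts were not kept. Hoxb1 then had too few UMIs for a ratio.

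Noncoding genes of the clusters, which were not among the members, also gave signal. Hotairm1, a noncoding RNA gene of the Hoxa cluster, had 1321 UMIs in Ctrl and 1637 in cKO at E8.5 (log2 ratio 0.28, 0.18 to 0.39). Hoxb3os, antisense to Hoxb3, had 2566 UMIs in Ctrl and 4407 in cKO at E9.5 (0.64, 0.57 to 0.71). At E8.5 Hoxb3os was nearly alike in Ctrl and cKO, at 27.3 and 28.5 on the same scale. Unless strand was used in the counting, which is not given in the sources used here, reads of Hoxb3 and Hoxb3os cannot be told apart.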

How the results depend on the processing

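Of 292 recomputed values, 245 stayed within the counting interval of the main value, whatever their sign (counts within 1.5 times). Another 40 moved, and 7 changed sign and left a main interval that excluded 0. Where the main interval held 0, a change of sign was not counted, and the causes were not tested. With TMM factors the summed level had a log2 ratio of 0.53 for cKO against Ctrl at E9.5 and of -0.039 for E9.5 against E8.5 in Ctrl, where 1 member was 2-fold higher. With each cell group given its weight in the first library (Ctrl E8.5 between stages, Ctrl between genotypes), the stage ratio was 0.69 with 7 members higher and 1 lower. With such weights 2 members were higher in cKO at E9.5. Under this weighting Hoxa2 (-0.050) and Hoxc4 (0.78) in cKO at E9.5 and Hoxb1 between stages (0.27) changed sign. With thinned cells 0 members were higher in cKO at E8.5 and 1 was lower at E9.5 than E8.5 in Ctrl. With a minimum of 1 UMI, 2 were higher and 2 lower in cKO at E8.5, 1 lower in cKO at E9.5 and 4 lower at E9.5 than E8.5. The share of all genes past 2-fold was not recomputed under any of these settings. These counts therefore show how the main counts moved and are not a result about Hox genes. Keeping cells of several gates gave 0.029 for the E8.5 sum in Arg1-gated cells and 0.27 in Foxd1/Foxd2-gated cells. Without cells of neural tube genes, an alternative added after seeing the data, Zic/Msx-gated cells gave 1.11 for the sum and 1.45 for Hoxb2.

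No paired analysis was possible because each group was 1 library, and for the same reason no leave-one-out fit was run. Depth limits the members of groups 6 to 13, whose absence from a cell group cannot be read from these counts.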

Other observations

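Cells outside the gated groups also carried Hox transcripts. Cells that passed no gate had 51.5, 47.9, 90.9 and 112 UPM in Ctrl E8.5, cKO E8.5, Ctrl E9.5 and cKO E9.5, and cells that passed several gates had 134, 121, 82.5 and 102 UPM. Both kinds together made up a large part of each library, so the values by cell group do not account for all Hox UMIs.

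Groups with fewer than 20 cells in a library were not compared. At E8.5 the endoderm-like cells, 8 in Ctrl and 7 in cKO, had 410 and 391 UPM, and the pSHF-like cells, 11 and 19, had 188 and 273 UPM. The neural crest-like cells, 27 in Ctrl E8.5 and 14 in cKO E8.5, had 102 and 176 UPM.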
